A study of Homo sapiens with 4 samples.

Results

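Circular RNAs (circRNAs) of the receptors and SMAD proteins that carry TGF-beta, activin and BMP signals were followed in exosomes, small vesicles shed into the medium by cells, of pancreatic cancer cells. The members were all circRNAs whose listed host gene was ACVR2A, ACVR1, TGFBR1, TGFBR2, BMPR1A, BMPR2, SMAD2, SMAD3, SMAD4 or SMAD5, of any class, which gave 15 of the 12571 circRNAs in the table. Of these, 11 had a read in the 4 libraries used, of 9405 circRNAs with a read in all. They came from 7 of the 10 genes. The irradiated group (libraries B1 and B2) was exosomes of cells given 10 Gy of X-rays, and the control group (A1 and A2) was exosomes of cells that were not irradiated. Cells of both groups were grown in medium with exosome-depleted serum, and total RNA of the exosomes was depleted of rRNA and sequenced. The labels give every sample the same 4 lines derived from human pancreatic tumours (MIA PaCa-2, PANC-1, BxPC-3 and SW1990), so a library could not be assigned to a line. Nothing in the labels says that the 2 libraries of a group came from separate cultures, so p-values measure only the spread between these samples, which may be technical.

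In this pathway a dimeric ligand brings together type II receptors, among them TGFBR2, BMPR2 and ACVR2A, and type I receptors, among them TGFBR1, BMPR1A and ACVR1, all of which are serine/threonine kinases. The type I receptor then phosphorylates a receptor-regulated SMAD: SMAD2 and SMAD3 in the TGF-beta and activin branch, SMAD5 in the BMP branch. The phosphorylated SMADs join SMAD4, the shared partner, enter the nucleus and regulate transcription. TGF-beta restrains the growth of normal epithelium, and SMAD4 is a tumour suppressor gene often lost in pancreatic cancer. BxPC-3 is known to carry a homozygous SMAD4 deletion. A circRNA arises when the 3′ end of an exon is spliced back to the 5′ end of the same or an earlier exon, and it is counted by the reads that cross that back-splice junction. A circle has 1 such junction whatever its length, so junction reads need no correction for length.

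A junction of an exonic circle of ACVR2A, BMPR2, SMAD2, SMAD3 and SMAD4 is shown for each gene because such junctions are the sequence by which a circle differs from the linear mRNA of its gene. They were read from GRCh37 (the genome of hg19, the build of the table), 30 bases on each side, 5′ to 3′ on the strand of the gene. The last bases of the circle's final exon are in lower case, and the first bases of its first exon are in capitals.
ACVR2A, exon 4 to exon 2 (chr2:148653870-148657467, plus strand): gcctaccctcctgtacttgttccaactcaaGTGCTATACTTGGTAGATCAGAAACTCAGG
BMPR2, exon 3 to exon 2 (chr2:203329532-203332412, plus strand): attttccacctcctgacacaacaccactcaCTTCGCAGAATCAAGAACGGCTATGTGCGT
SMAD2, exon 6 to exon 3 (chr18:45391430-45396935, minus strand): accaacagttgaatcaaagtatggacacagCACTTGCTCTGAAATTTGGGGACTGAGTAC
SMAD3, exon 5 to exon 2 (chr15:67457233-67462942, plus strand): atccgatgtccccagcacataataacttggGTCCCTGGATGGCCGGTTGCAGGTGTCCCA
SMAD4, exon 10 to exon 5 (chr18:48581151-48593557, plus strand): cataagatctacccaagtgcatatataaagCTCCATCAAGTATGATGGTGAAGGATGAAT

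The SMAD2 junction is that of the smaller of its circles, which had 4 of the 21 SMAD2 reads. The 20 bases on either side of each of these 5 junctions occur at 1 place in the genome. In the introns that flank these circles, the bases next to the exons were AG before the first exon and GT after the last exon, the usual splice signals, on the strand of the gene. The same held for all 7 exonic members with a read and for all 2567 exonic circRNAs with a read. Of the 6617 nuclear circRNAs with a read that are not in circBase, 53.7% had these signals on the listed strand and 46.2% on the opposite strand. Nearly every junction thus had the signals on 1 of its strands, so their presence does not set these circles apart.

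All 81 junction reads of the members lay in the irradiated libraries. B1 held 69 of them and B2 held 12, and A1 and A2 held none. As a share of all junction reads, the members made up 0.455% of the 15150 reads in B1 (95% Wilson interval 0.360 to 0.576%) and 0.208% of the 5756 reads in B2 (0.119 to 0.364%). In the controls the share was 0 of 6544 reads in A1, which allows up to 0.0458% (3 counts of the total), and 0 of 8094 reads in A2, which allows up to 0.0371%. Intervals and limits cover counting error only. No member was read in more than 1 library, and 8953 of the 9405 circRNAs with a read (95.2%) were likewise read in 1 library. Both irradiated libraries lay above both controls in the summed share. Since 2 libraries against 2 cannot give an exact two-sided permutation p below 0.333, no p is given for these sums. Exosomes were sequenced in bulk, so more vesicles that hold a circle and more copies of it per vesicle cannot be told apart.

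**Figure D1:**
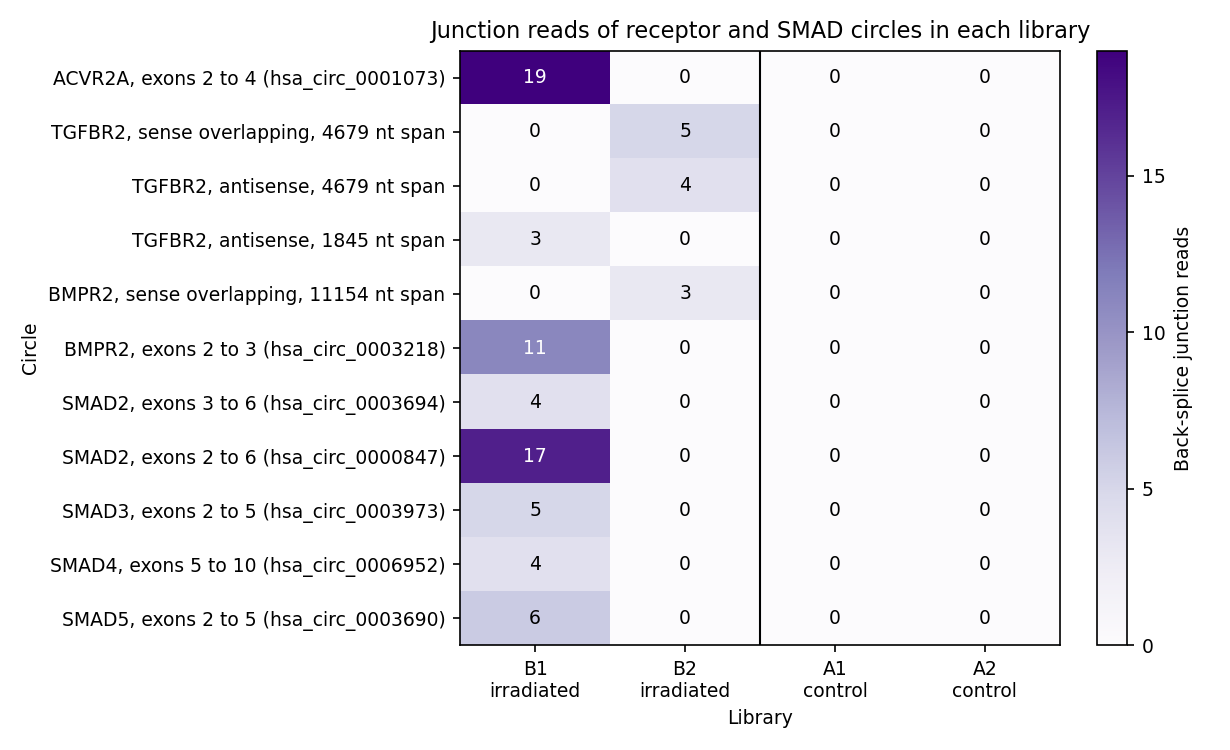
Back-splice junction reads (colour and printed number) of the 11 receptor and SMAD circles with a read (rows) in the irradiated libraries B1 and B2 and the control libraries A1 and A2 (columns). The 7 exonic circles were read in B1 alone, 3 of the 4 others in B2 alone, and no circle had a read in a control library.

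The libraries differed in their classes of circRNA as a whole. Exonic circRNAs, whose ends are exon ends, took 66.5% of the reads of B1 and 35.9% of those of B2, whereas they took 0.0458% in A1 and 0.0494% in A2, with 3 and 4 exonic circRNAs read. Junctions on chromosome M took 0.264% in B1 and 1.25% in B2, whereas they took 22.2% in A1 and 15.1% in A2. Of the 2567 exonic circRNAs with a read, 2560 (99.7%) had none in the controls, as was the case for the 7 exonic members. The lack of control reads was thus shared with nearly all exonic circRNAs and was not particular to the receptors and SMADs. Circles of marker hosts were few: 2 of 15 hosts for pancreatic cancer epithelium had a read (EPCAM and MET, 5 reads in B1 and 0 in each other library, with KRT7, KRT8, KRT18 and KRT19 at 0), 2 of 10 stroma hosts (COL3A1 and VIM, 10 reads in B2 and 0 in each other library), 2 of 15 blood hosts (PPBP and PTPRC, 0 reads in each irradiated library, against 2 in each control) and 3 of 10 neuron hosts (GRIN2B, RBFOX1 and RIMS1, 0 reads in each irradiated library, against 7 in each control). The part of these differences in the members' reads was not tested.

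Among the receptors, ACVR2A gave the most abundant circle of all members. ACVR2A encodes a type II receptor for activins. Its circle, hsa_circ_0001073 (chr2:148653870-148657467, plus strand), was exonic, 473 nt long, and joined exon 4 of 11 back to exon 2 at the junction shown above. It had 19 reads in B1 and none in B2, A1 or A2. The groups thus overlapped, since B2 was at 0 like the controls. Per junction read of the group it was at least 4.43-fold higher in the irradiated libraries than in the controls, against a floor of 3 counts over the control group. With the chromosome M reads left out of the totals this bound was 3.64-fold. Such bounds, here and for the circles below, pool B1 and B2, although each circle was read in only 1 of them. They allow for counting error in the controls and not in the irradiated reads, nor for the spread between B1 and B2. The quasi-likelihood test of edgeR, fitted over 1957 circRNAs with at least 5 reads, gave a log2 fold change of 6.61 with an adjusted p of 0.549, so the difference did not pass. A fitted fold change against a group at 0 depends on the prior count of the fit and is no bound.

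The same 2 ends at ACVR2A were also listed on the minus strand, under the host AC009480.3, with 3 reads in B1 and none in the other libraries. The splice signals lay on the plus strand, that of ACVR2A. Among exonic circRNAs with 11 or more reads in B1, 28 of 125 (22.4%) were also read on the other strand in that library, against 61 of 2053 (2.97%) of those with 1 to 10 reads. The ACVR2A circle was the only exonic member with such a second row.

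BMPR2, the type II receptor for BMPs, had a pair of circles. The exonic circle hsa_circ_0003218 (chr2:203329532-203332412, plus strand) was 342 nt long and held exons 2 and 3 of 13, each 171 nt. It had 11 reads in B1 and none in B2, A1 or A2. It was at least 2.57-fold higher per junction read in the irradiated libraries than in the controls, and at least 2.11-fold without chromosome M. In edgeR its log2 fold change was 5.84 (adjusted p = 0.549). The other, of the sense overlapping class and not in circBase (chr2:203321259-203332412, plus strand, a span of 11154 bases), had 3 reads in B2 and none in B1, A1 or A2, too few to be tested. It ended at the same exon 3 end as the exonic circle but began inside intron 1, 8273 bases before exon 2. Summed over both circles, BMPR2 had 11 reads in B1 and 3 in B2. The B2 reads rest on the sense overlapping circle alone. Its first 20 bases occur at 292 places in GRCh37, so that these reads could be placed less surely than those of the exonic circle.

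TGFBR2, the type II receptor for TGF-beta, had 3 circles and no exonic circle. None of the 3 was in circBase. A sense overlapping circle (chr3:30711964-30716642, plus strand, a span of 4679 bases) had 5 reads in B2 and none in B1, A1 or A2. The same ends on the minus strand, listed as antisense, had 4 reads in B2 and none in B1, A1 or A2. These ends lay in intron 3, 1166 bases before exon 4, and in intron 5, 904 bases after exon 5. A smaller antisense circle (chr3:30713851-30715695, minus strand, 1845 bases), whose ends lay inside exon 4 and exon 5, had 3 reads in B1 and none in B2, A1 or A2. The junctions of the shared ends, read on each strand, show the same bases as reverse complements. Capitals mark the start of the circle as listed.
TGFBR2, plus strand: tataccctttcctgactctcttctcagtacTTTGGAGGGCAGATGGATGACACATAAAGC
TGFBR2, minus strand: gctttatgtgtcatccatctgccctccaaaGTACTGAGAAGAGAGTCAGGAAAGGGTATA
At all 3 TGFBR2 junctions the AG and GT signals stood on the minus strand, antisense to TGFBR2, and not on the plus strand. For the circle listed on the plus strand they were thus on the opposite strand, as for 46.2% of the 6617 nuclear circRNAs with a read that are not in circBase. Reads on both strands at the same ends were found for 135 of the 1232 circRNAs of B2 that are not in circBase (11%), and the TGFBR2 pair was among them. The plus strand circle was tested, with a log2 fold change of 5.80 (edgeR, adjusted p = 0.549). It was at least 1.17-fold higher per junction read in the irradiated libraries than in the controls, a bound that fell below 1 without chromosome M.

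The type I receptors gave no reads in the 4 libraries used. ACVR1, a receptor for BMPs and activins, and TGFBR1, the type I receptor for TGF-beta, had no circRNA in the table, and none of any host lay within their annotated spans (chr2:158592763-158732842 and chr9:101866320-101916474). BMPR1A, a type I receptor for BMPs, had 3 rows, the exonic hsa_circ_0006675 (chr10:88598622-88635842, 334 nt, exons 2 and 3) and 2 sense overlapping circles (chr10:88649819-88684398, a span of 34580 bases, and chr10:88659551-88664520, 4970 bases), all on the plus strand and all at 0 reads in B1, B2, A1 and A2. At 3 counts of the total, a count of 0 allows up to 0.0198% of junction reads in B1 and 0.0521% in B2. A 0 in B2 thus does not exclude a circle at the level of the less abundant members of B1.

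SMAD2, a receptor-regulated SMAD of the TGF-beta and activin branch, had the most reads of any member gene, with 21 in B1 and none in B2, A1 or A2. Most belonged to hsa_circ_0000847 (chr18:45391430-45423180, minus strand), an exonic circle of 783 nt that held exons 2 to 6 of 11 and the start codon. It had 17 reads in B1 and 0 in each other library. It was at least 3.97-fold higher per junction read in the irradiated libraries than in the controls, and at least 3.26-fold without chromosome M. Its log2 fold change in edgeR was 6.45 (adjusted p = 0.549). The smaller hsa_circ_0003694 (chr18:45391430-45396935, minus strand, 494 nt) held exons 3 to 6, so that both SMAD2 circles ended at exon 6 and shared the lower-case bases of the junction shown above. It had 4 reads in B1 and 0 in each other library, too few to be tested.

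SMAD3, the other receptor-regulated SMAD of that branch, had 1 circle, hsa_circ_0003973 (chr15:67457233-67462942, plus strand), exonic, 452 nt, exons 2 to 5 of 9. It had 5 reads in B1 and none in B2, A1 or A2. The bound was at least 1.17-fold higher per junction read in the irradiated libraries, and below 1 without chromosome M. In edgeR the log2 fold change was 4.75 (adjusted p = 0.549). The SMAD3 circle was the richest in G and C of the exonic members with a read, at 57.5%, and the ACVR2A circle the poorest, at 40.8%.

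SMAD4 had a circle. Its single row, hsa_circ_0006952 (chr18:48581151-48593557, plus strand), was exonic, 854 nt long and held exons 5 to 10 of 12. It had 4 reads in B1 and none in B2, A1 or A2. With 4 reads it was below the minimum of 5 for the test, both as a circle and as a host gene, and no fold is given because the bound against 3 control counts was below 1. The reads cross the junction of exon 10 to exon 5, and the exons between were taken from the annotation, whose summed length equals the listed one. The 0 in the other libraries says little about the gene, since 3 counts of the total was 0.0521% of junction reads in B2, against 0.0264% for the 4 SMAD4 reads in B1. Which line the reads came from could not be told, because every sample carries the labels of all 4 lines.

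SMAD5, a receptor-regulated SMAD of the BMP branch, had 2 rows, of which 1 had reads. The exonic hsa_circ_0003690 (chr5:135483521-135499080, plus strand) was listed at 1103 nt and held the start codon. It had 6 reads in B1 and none in B2, A1 or A2. It was at least 1.4-fold higher per junction read in the irradiated libraries than in the controls, and at least 1.15-fold without chromosome M. In edgeR the log2 fold change was 5.0 (adjusted p = 0.549). Exons 2 to 5 of the coding transcript used add up to 1019 nt, 84 nt less than listed, and another SMAD5 transcript has an exon of 84 nt in this interval. The shorter hsa_circ_0007930 (chr5:135483521-135489852, 731 nt), which starts at the same base, had no read.

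The single members did not pass the test of irradiated against control. Of the 11 circles with a read, 6 had at least 5 reads and were tested, and 0 of them were called in edgeR, where a call needs an unadjusted p under 0.05 with a fold change over 2. None had an unadjusted p under 0.05, and DESeq2 called 0 as well. Over all 1957 circRNAs tested, 3.53% were called higher in the irradiated libraries (69 circRNAs, against 4 called lower) and 0.102% had an adjusted p under 0.05. The median log2 fold change was 5.82 over the 6 members tested, 5.25 over the 901 exonic circRNAs tested and 5.0 over all circRNAs tested. With the 6 members set at their bounds per junction read, the median was at least 1.98-fold, within bounds of 1.17 to 4.43. Without chromosome M the bounds of SMAD3 and TGFBR2 were below 1. None of the 6 had a control read, so that each reached the minimum of 5 reads through irradiated reads alone. Each could thus only have a fold change above 1, and no conclusion is drawn from these medians. Each was read in 1 irradiated library and was at 0 in the other like the controls, so the groups overlapped for all 6. The p-values of the members had the ranks 91 (ACVR2A) to 1079 (SMAD3) of 1957.

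With the main settings, the call of the ACVR2A, larger SMAD2 and exonic BMPR2 circles turned on B2. With B2 kept, ACVR2A and SMAD2 were called only under other settings of edgeR. These were a minimum of 10 reads, the newer quasi-likelihood form and the likelihood ratio test, and BMPR2 was called in none of them. Without B2, edgeR called 3 of the 5 members tested higher, ACVR2A (adjusted p = 1.4e-05), SMAD2 (adjusted p = 4.6e-05) and BMPR2 (adjusted p = 0.0066). Of all 1684 circRNAs tested in that fit, 21.8% were called higher (367, against 19 lower) and 12.3% had an adjusted p under 0.05. It compares 1 irradiated library with the 2 controls and assumes that B1 varies like the other group.

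Summed per host gene over exonic, intronic and sense overlapping circles, 6 member genes were tested among 1504 hosts. SMAD2 was the only member called in edgeR, with a log2 fold change of 5.81 and an adjusted p of 0.437. Over all hosts, 9.44% were called higher in the irradiated libraries and 1.53% had an adjusted p under 0.05, and the 1 of 6 member genes is to be read beside that share. ACVR2A (log2 fold change 5.67) and BMPR2 (5.57) followed, both with an adjusted p of 0.477 in edgeR. TGFBR2 (4.91, 0 reads in B1 and 5 in B2 once antisense circles were left out), SMAD5 (4.09) and SMAD3 (3.85) had adjusted p-values of 0.477, 0.565 and 0.577 in edgeR. The 5 TGFBR2 reads are those of the circle listed on the plus strand, whose AG and GT signals stood on the minus strand, antisense to TGFBR2. The p-value of SMAD2 ranked 155 of 1504. Its call was lost when A1, A2 or B2 was left out (without B1 the gene had no read), with RLE factors, with no factors, in DESeq2 and in the newer quasi-likelihood form.

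**Figure D2:**
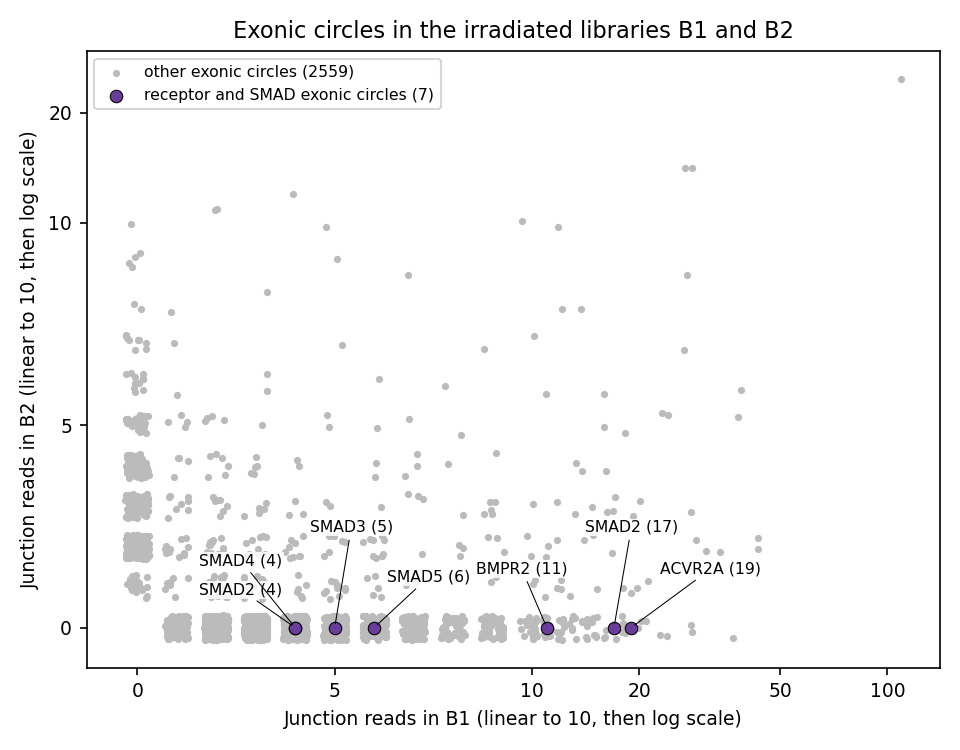
Junction reads in the irradiated library B1 (x axis) and the irradiated library B2 (y axis) of exonic circRNAs, on scales that are linear to 10 reads and logarithmic above. Grey points are the 2559 other exonic circRNAs with a read in either library, shifted at random by up to 0.3 reads so that they can be seen, and purple points are the 7 receptor and SMAD circles with their B1 reads in brackets, all at 0 in B2.

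Within B1, the 7 exonic members had 4 to 19 reads, against a median of 3 over the exonic circRNAs read in B1. The ACVR2A circle ranked 27 of 2178 exonic circRNAs by reads, with 30 (1.38%) at as many reads or more. The larger SMAD2 circle ranked 39, with 43 circRNAs (1.97%) at as many or more, and the BMPR2 circle ranked 99 (5.74%). The circles of SMAD5 and SMAD3 ranked 396 and 546, and those of SMAD4 and the smaller SMAD2 circle shared the rank 767, with 49.6% of exonic circRNAs at 4 reads or more. In all, the 66 exonic member reads made up 0.656% of the 10068 exonic reads in B1 (95% Wilson interval 0.516 to 0.833%), against 0 of 2066 in B2, where 0 allows up to 0.145%. The 2 intervals did not overlap, which compares these libraries and not a condition, since both were irradiated.

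The plot of B1 against B2 shows how far the irradiated libraries shared their exonic circles. Of the exonic circRNAs read in B1, 280 of 2178 (12.9%) were also read in B2. The share was 9.08% of those with 3 to 5 reads in B1, as had SMAD3, SMAD4 and the smaller SMAD2 circle, and 14.0% of those with 6 to 10, as had SMAD5. It was 32% (33 of 103) of those with 11 to 20 reads, the range of ACVR2A, the larger SMAD2 circle and BMPR2. None of the 7 members was read in B2, where most circles with as many reads in B1 had none either.

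Most of the exonic circles began early in their genes. The circles of ACVR2A, BMPR2, SMAD3, SMAD5 and the larger SMAD2 circle began at exon 2, which made 5 of 7 (71.4%), against 723 of 2545 exonic circRNAs with a read and annotated ends (28.4%). The smaller SMAD2 circle began at exon 3 and the SMAD4 circle at exon 5. They held 2 to 6 exons with a median of 4, against a median of 3 over all exonic circRNAs. Their listed lengths were 342 to 1103 nt with a median of 494 nt, against 452 nt (quartiles 298 and 757).

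**Figure D3:**
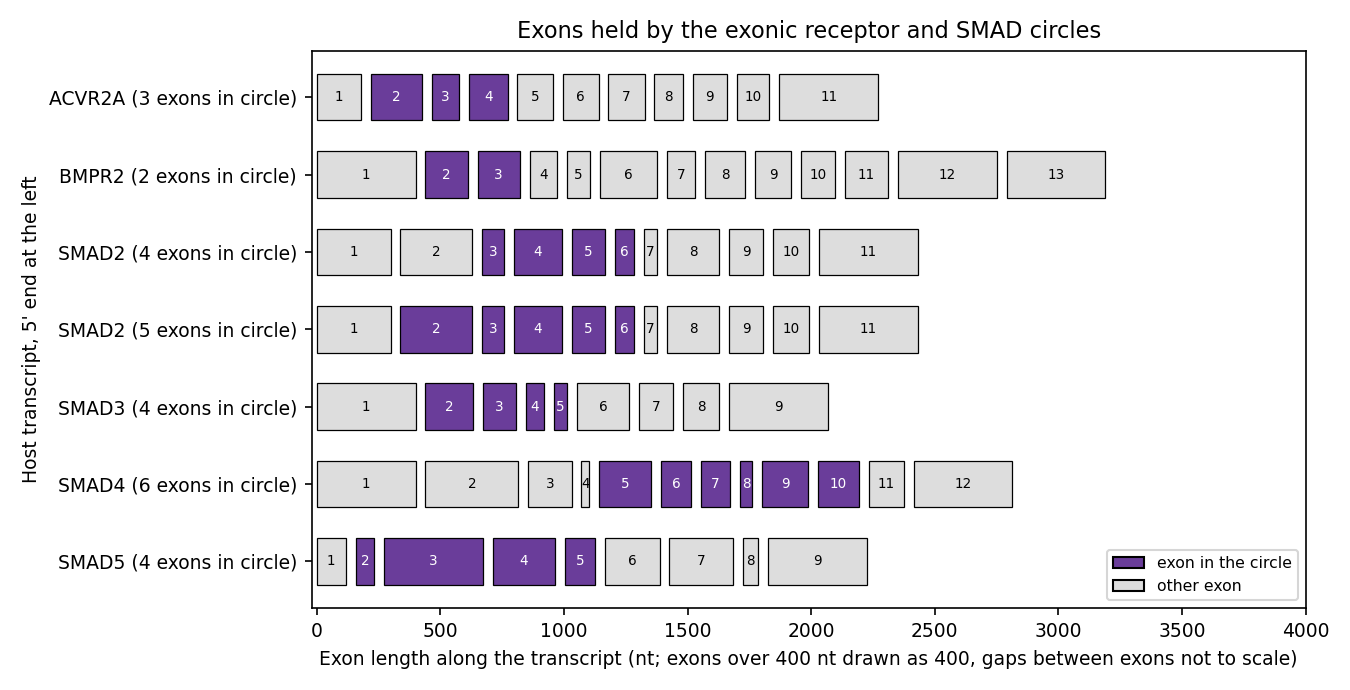
Exons of the host transcripts of the 7 exonic circles with a read, drawn by length in nt from the 5′ end at the left, with exons over 400 nt drawn as 400 nt and the gaps between exons not to scale. Purple exons are in the circle and grey ones are not, and 5 of the 7 circles begin at exon 2.

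What the exons encode differed among the hosts. The ACVR2A circle held 3 exons of 208, 110 and 155 nt, wholly coding, which cover codons 19 to 176 of 513, the ligand-binding extracellular domain and the membrane-spanning segment of the receptor and none of its kinase domain. The BMPR2 circle covered codons 26 to 140 of 1038, within the extracellular ligand-binding region. The larger SMAD2 circle held 53 noncoding nt and codons 1 to 244 of 467, and the smaller one codons 79 to 244. These are the amino-terminal MH1 domain, or its later part in the smaller circle, and the linker. The SMAD3 circle covered codons 69 to 220 of 425, a part of the MH1 domain and the linker. The SMAD5 circle held codons 1 to 259 of 464, again MH1 and linker. The SMAD4 circle differed, with codons 152 to 436 of 552, which lie after the MH1 domain and run from the linker into MH2, the domain through which SMADs bind each other.

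The coding part of the circles was 11% of the coding sequence for BMPR2, 30.7% for ACVR2A, 35.3% for the smaller SMAD2 circle, 35.5% for SMAD3, 51.6% for SMAD4, 52.1% for the larger SMAD2 circle and 55.6% for SMAD5. The median of 35.5% stood beside 19.5% over 2487 exonic circRNAs of coding transcripts. The start codon lay in 2 of 7 circles (SMAD2 and SMAD5, 28.6%), against 13.4% of exonic circRNAs. The length was a multiple of 3 in 2 of 7 (the larger SMAD2 circle and BMPR2), against 35.6%. With 7 circles from 6 genes, a pair of which share 4 exons, these shares describe the members, and no test was made of them.

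The introns that flank the circles were long. The intron upstream of the circle was 98534 bases at SMAD3, 87258 at BMPR2, 51093 at ACVR2A, 33551 and 25956 at the larger and smaller SMAD2 circles, 14869 at SMAD5 and 5456 at SMAD4. All but that of SMAD4 were longer than the median of 7750 bases over 2542 exonic circRNAs with a read. The downstream intron was 46029 bases at BMPR2, 15292 at ACVR2A, 13731 at SMAD2, 10636 at SMAD3, 9450 at SMAD4 and 9042 at SMAD5, all above the median of 6721. The circles of SMAD3, BMPR2, ACVR2A, SMAD5 and the larger SMAD2 circle were flanked upstream by the first intron of the gene.

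**Figure D4:**
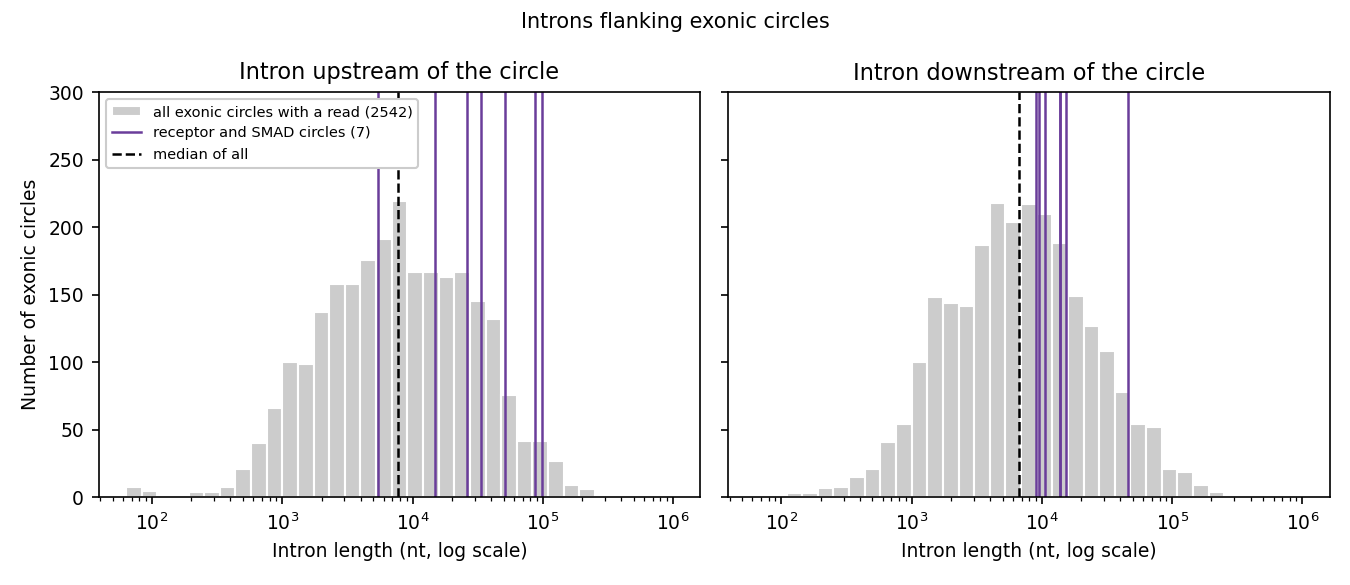
Lengths of the introns upstream (left) and downstream (right) of exonic circRNAs with a read, in nt on a log axis, against the number of circRNAs in each bin. Purple lines are the 7 receptor and SMAD circles and dashed lines the medians of all exonic circRNAs, 7750 and 6721 nt, with 6 of 7 purple lines right of the dashed line upstream and all right of it downstream.

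Other genes of the pathway were read from a list of 143 genes. Of these, 31 had a circle with a read and 22 an exonic one, and their summed reads were 178 (B1) and 25 (B2) in the irradiated libraries, against 3 (A1) and 15 (A2) in the controls. The host test covered 16 of them and called 2 higher and 0 lower in edgeR, beside the 9.44% called higher over all hosts. ZEB1, a repressor of epithelial genes, had 22 (B1) and 1 (B2) reads in the irradiated libraries, with 0 in each control (log2 fold change 6.02, adjusted p = 0.326 in edgeR). ITCH, a ubiquitin ligase that acts on SMADs among other targets, had 19 (B1) and 3 (B2) reads in the irradiated libraries, with 0 in each control (log2 fold change 6.10, adjusted p = 0.288 in edgeR). Both genes were thus read in both irradiated libraries and in neither control, as were CRIM1, ROCK1 and TRIM33, which were not called. The share of all hosts with this pattern was not counted, but 99.7% of exonic circRNAs with a read had none in the controls.

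The genes next in number of reads were not called. ZEB1 and ITCH were called on the unadjusted p alone, since neither had an adjusted p under 0.05 in edgeR. PARD3, a cell polarity protein, had 17 (B1) and 1 (B2) reads in the irradiated libraries, against 0 (A1) and 3 (A2) in the controls, so that its groups overlapped. CRIM1, a membrane protein that binds BMPs, had 15 and 2 reads in B1 and B2, ROCK1, a kinase downstream of RHOA, 11 and 2, and TRIM33, a SMAD4 regulator, 12 and 1, all with 0 in each control. CREBBP, a histone acetyltransferase, and NCOR1, a corepressor, each had 9 reads in B1 and 0 in each other library. By role, reads were found for 9 of 23 genes of SMAD anchoring and turnover, 7 of 22 nuclear cofactors, 6 of 16 genes of the noncanonical branch, 4 of 21 extracellular regulators and 3 of 14 other receptors and coreceptors. Only 2 of 30 ligands had reads, TGFB1 with 0 (B1) and 6 (B2), against 0 (A1) and 2 (A2), and INHBC with 3 in A2 alone. None of the other SMADs (SMAD1, SMAD6, SMAD7 and SMAD9) and none of 13 target genes had a circle with a read.

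**Figure D5:**
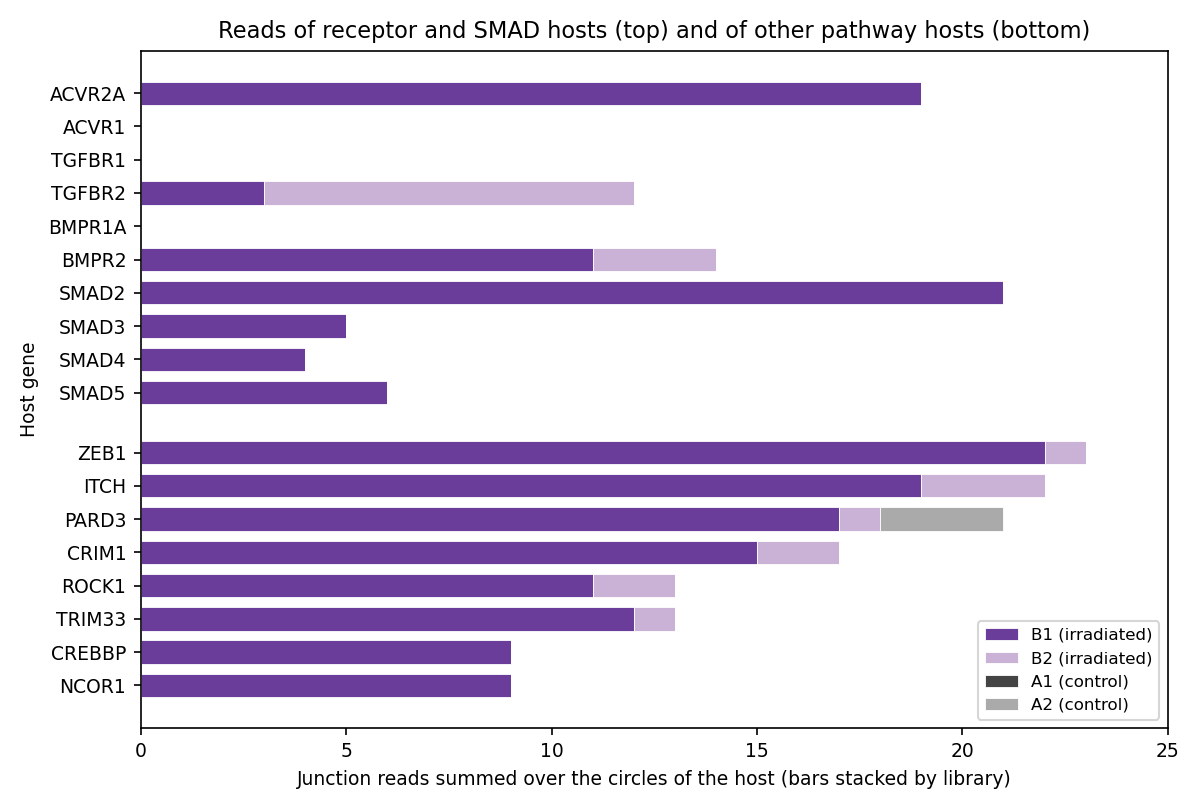
Junction reads summed over the circles of each host gene (bar length), stacked by library, for the 10 receptor and SMAD genes (top) and the 8 other pathway genes with the most reads (bottom). SMAD2 (21 reads) and ACVR2A (19) had the most among the receptors and SMADs, next to 23 for ZEB1 and 22 for ITCH, and of the genes shown PARD3 alone had control reads (3 in A2).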

How the data were processed

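Per the labels and the study's methods, exosomes were isolated by ultracentrifugation, libraries were made with a strand-specific kit, reads were trimmed with Cutadapt 1.9.3 and aligned to hg19 with STAR 2.5.1b, and junctions were called with DCC and annotated with circBase. The authors deposited counts of junction reads per circRNA, whole numbers with no normalization, beside log CPM values that were not used here. Of the per-library columns, 4 (2 of counts), named A3 and B3, match no sample title and were not used. Depth was 5756 to 15150 junction reads per library, with a median of 2 or 3 per circRNA seen.

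The 4 libraries were read from the columns named in their titles. The numbers of circRNAs with a read in A1 (2052) and A2 (2485) equal those the paper lists. For B1 the paper lists slightly more than the 3492 found. For B2 it lists more than the 1861 found in its column, and neither difference was resolved. circRNAs with at least 5 reads were tested with TMM factors and the quasi-likelihood F test of edgeR 4.0.16 (R 4.3.3), irradiated against control, with Benjamini-Hochberg adjustment over all tested. Called means fold change over 2 and p under 0.05, the study's thresholds. The TMM factors were 0.325 and 0.631 (B1, B2), against 2.30 and 2.12 (A1, A2), and the common dispersion was 4.18. Host genes were tested likewise. The fit was also run on simulated counts, but these were far deeper and far less variable than the real ones. That run therefore does not show how the fit performs at the depth and dispersion of these data. Alternatives were other scalings, read minimums, DESeq2 1.42.0, other forms of the edgeR test, a replicate block and each library left out. Exons came from GENCODE 44 on GRCh37 and sequences from GRCh37. A transcript with exon ends at both ends was taken for each circle, where possible one whose exons add up to the listed length. Circles without such a transcript were placed on a coding transcript of the gene. The members and lists were chosen with earlier results of these data known. Every member is named, circles with 5 reads or more in full, and the 8 pathway genes with most reads. Of the 11 members with a read, the junction sequences of 4 are not reported here.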

Additional observations from a re-analysis of the deposited data

How the results depend on the processing

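The count of member circles called was 0 and rose to 2 (ACVR2A and SMAD2) at a minimum of 10 reads, in the newer quasi-likelihood form and in the likelihood ratio test. It was 0 with RLE factors, no factors, at least 1 read, DESeq2 and the replicate block, and 0 to 3 with each library left out (3 without B2). At 10 reads the adjusted p in edgeR was 0.0288 for ACVR2A and 0.0574 for SMAD2. Over all circRNAs 73 were called, and 14 with RLE, 138 at 10 reads, 13 of 21 tested (no member among them) with filterByExpr, 8 in DESeq2, 151 in the newer form, 163 in the likelihood ratio test, 60 with no factors, and 8 to 386 with a library left out (8 without A2, 386 without B2). The split of higher and lower calls, 69 and 4, was 34 and 26 with no factors and 3 and 5 in DESeq2, and the median log2 fold change of all circRNAs moved by 0.81 with RLE and -1.02 with no factors. Of the member hosts 1 was called (SMAD2), and 0 with RLE, no factors, filterByExpr, DESeq2 and the replicate block, 3 at 10 reads and in the likelihood ratio test, and 0 to 0 with a library left out. In the newer form 1 was called, BMPR2 and not SMAD2. Over all hosts 159 were called, and 11 with RLE, 3 with filterByExpr, 15 in DESeq2, 0 with the replicate block, and 18 to 64 with a library left out. The deviations of same-numbered libraries from their group means had a correlation of 0.0267. It cannot tell whether the numbers pair the libraries. With 2 libraries a group the deviations mirror each other, and nearly all exonic circRNAs lacked control reads. The members' share of junction reads, 0.455% in B1 and 0.208% in B2, was 0.664% (B1) and 0 (B2) when only circBase circles were counted in both parts of the share, and 0.330% in B1 without ACVR2A. Of 63 fitted values of member circles under alternatives 54 stayed on their side of the threshold, 9 passed it and 0 reversed, and of 63 of hosts 50 stayed, 8 no longer passed, 5 passed and 0 reversed. The causes were not tested. A count of 0 in B2 allows up to 0.0521% of junction reads, above the share of 5 of the 8 members read in B1, so depth limits what B2 can show.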
